A study of Homo sapiens with 6 samples.

Results

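Oxidative phosphorylation is the last stage of respiration, in which the electrons of NADH and succinate pass along complexes I to IV of the inner mitochondrial membrane to oxygen. Complexes I, III and IV pump protons on the way, and complex V, the ATP synthase, lets them flow back to make ATP. Complex II is built from nuclear genes alone, while the other complexes combine subunits translated inside the organelle from mitochondrial DNA with subunits that are made in the cytosol and imported. The mitochondrial genes are copied from a few promoters into long precursor RNAs that are then cut into single messages, whereas each nuclear subunit has a promoter of its own. In the data described here, the mRNAs of both genomes were followed after silencing of KLF5, a zinc finger transcription factor of the Krüppel-like family that binds GC-rich and CACCC-type DNA.

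The genes were picked by a rule on gene names that uses no measured value, although the rule was set with earlier results of these data known. They are the protein-coding genes named NDUFA, NDUFB, NDUFC, NDUFS or NDUFV with a number (complex I), SDHA to SDHD (complex II), UQCR (complex III), COX4 to COX8 (complex IV) or ATP5 (complex V), together with MT-ND, MT-CYB, MT-CO and MT-ATP, the genes of the mitochondrial DNA. This gave 100 of the 29185 genes in the table, of which 87 were nuclear and 13 MT-encoded. NDUFA4 was counted with complex IV, where its protein is found, and ATP5S and ATP5IF1 (the inhibitor of the ATP synthase) were counted with complex V. Enough reads for a test were present for 94 of the genes, namely 81 nuclear and all 13 MT-encoded ones. The 6 others (COX6A2, COX7A1, COX8C, NDUFA4L2, ATP5MGL and ATP5MF-PTCD1) had at most 20 reads in any library and were not tested. ATP5MGL, a near copy of ATP5MG, had 0 to 3 reads and ATP5MF-PTCD1 0 to 2 reads per library.

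The cells were SKOV3, an established human ovarian cancer line. A stable line in which KLF5 was silenced from a pLKO.1-EGFP-Puro vector (sh-KLF5, 3 libraries) was compared with its control (sh-NC, 3 libraries), which the labels give as WT genotype. The methods give puromycin selection for stable lines, without saying what the control carried or whether a line was 1 clone. No source used here names separate cultures behind the libraries, so that p-values measure only the spread between these libraries, which may be technical. RNA was enriched by oligo(dT), and the libraries held between 15852319 and 17543896 counted reads.

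KLF5, the silenced gene, had normalized counts (reads divided by 1 scaling factor per library) of 4371, 4425 and 4494 in the controls and of 1745, 1440 and 1436 after silencing. The groups did not overlap, and the sh-KLF5 mean was 34.8% of the control mean (log2 fold change -1.53, SE 0.12, limma adjusted p = 2.47e-07). Of all 15803 genes tested, 12.9% passed an adjusted p of 0.05 and 5.28% also passed the study's fold threshold of 1 on the log2 scale. Library sh-KLF5 1 stood apart from the other libraries of its group, with a chi-square over its degrees of freedom of 26.4 and 34.3 against them, while the other pairs within a group gave 4.66 to 11.6. For this reason the counts of changed genes are also given without that library. The 8 epithelial markers tested included 3 that fell, KRT8, KRT18 and MUC16. None was called higher, although 1 marker had a log2 fold change of 1.14 and the other 7 lay below 0. The summed level of the epithelial markers was 1546 to 1841 CPM (counts relative to library size) in sh-NC and 698 to 970 CPM in sh-KLF5. Of 6 fibroblast markers tested, COL1A2, COL3A1, DCN and PDGFRA fell, with a summed level of 66.7 to 98.6 CPM in sh-NC and 23.8 to 46.2 CPM in sh-KLF5. PDGFRA had 225 reads over the sh-NC libraries and 2 over the sh-KLF5 libraries, so that it entered the test through the control group. Its ratio was 112 in favour of sh-NC, with a counting interval of 30.6 to 928. Of the leukocyte and the endothelial markers, 1 gene each had enough reads for the test and neither passed it, while the leukocyte marker PTPRC had 0 to 1 reads per library. Whether these marker changes have a part in the results below was not tested, and in bulk RNA fewer cells of a type and less RNA per cell cannot be told apart.

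Most oxidative phosphorylation genes moved little. At an adjusted p of 0.05, 7 of the 94 genes tested changed (7.45%, against 12.9% of all genes tested). Of these, 4 nuclear genes were up-regulated (COX8A, NDUFA9, NDUFS4 and NDUFV3), while the nuclear gene COX6B2 and the MT-encoded MT-ND4L and MT-CO3 were down-regulated. The background in one direction was 6.04% of all genes for a rise and 6.85% for a fall. COX6B2 was the 1 member past the fold threshold. The groups did not overlap for 25 of the 94 genes (26.6%, against 31.3% of all genes). The median log2 fold change was 0.04, beside -0.002 over all genes tested. The 95% confidence interval lay between -1 and 1 for 89 of the 94 genes (94.7%, against 73.8% of all genes) and between -0.5 and 0.5 for 52 of them (55.3%, against 36.3%). A doubling or a fall of the same size was therefore outside the interval for most of these genes, while smaller changes lay within many intervals. Without sh-KLF5 1, 13 of the genes passed the test, beside 17.0% of all genes.

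**Figure D1:**
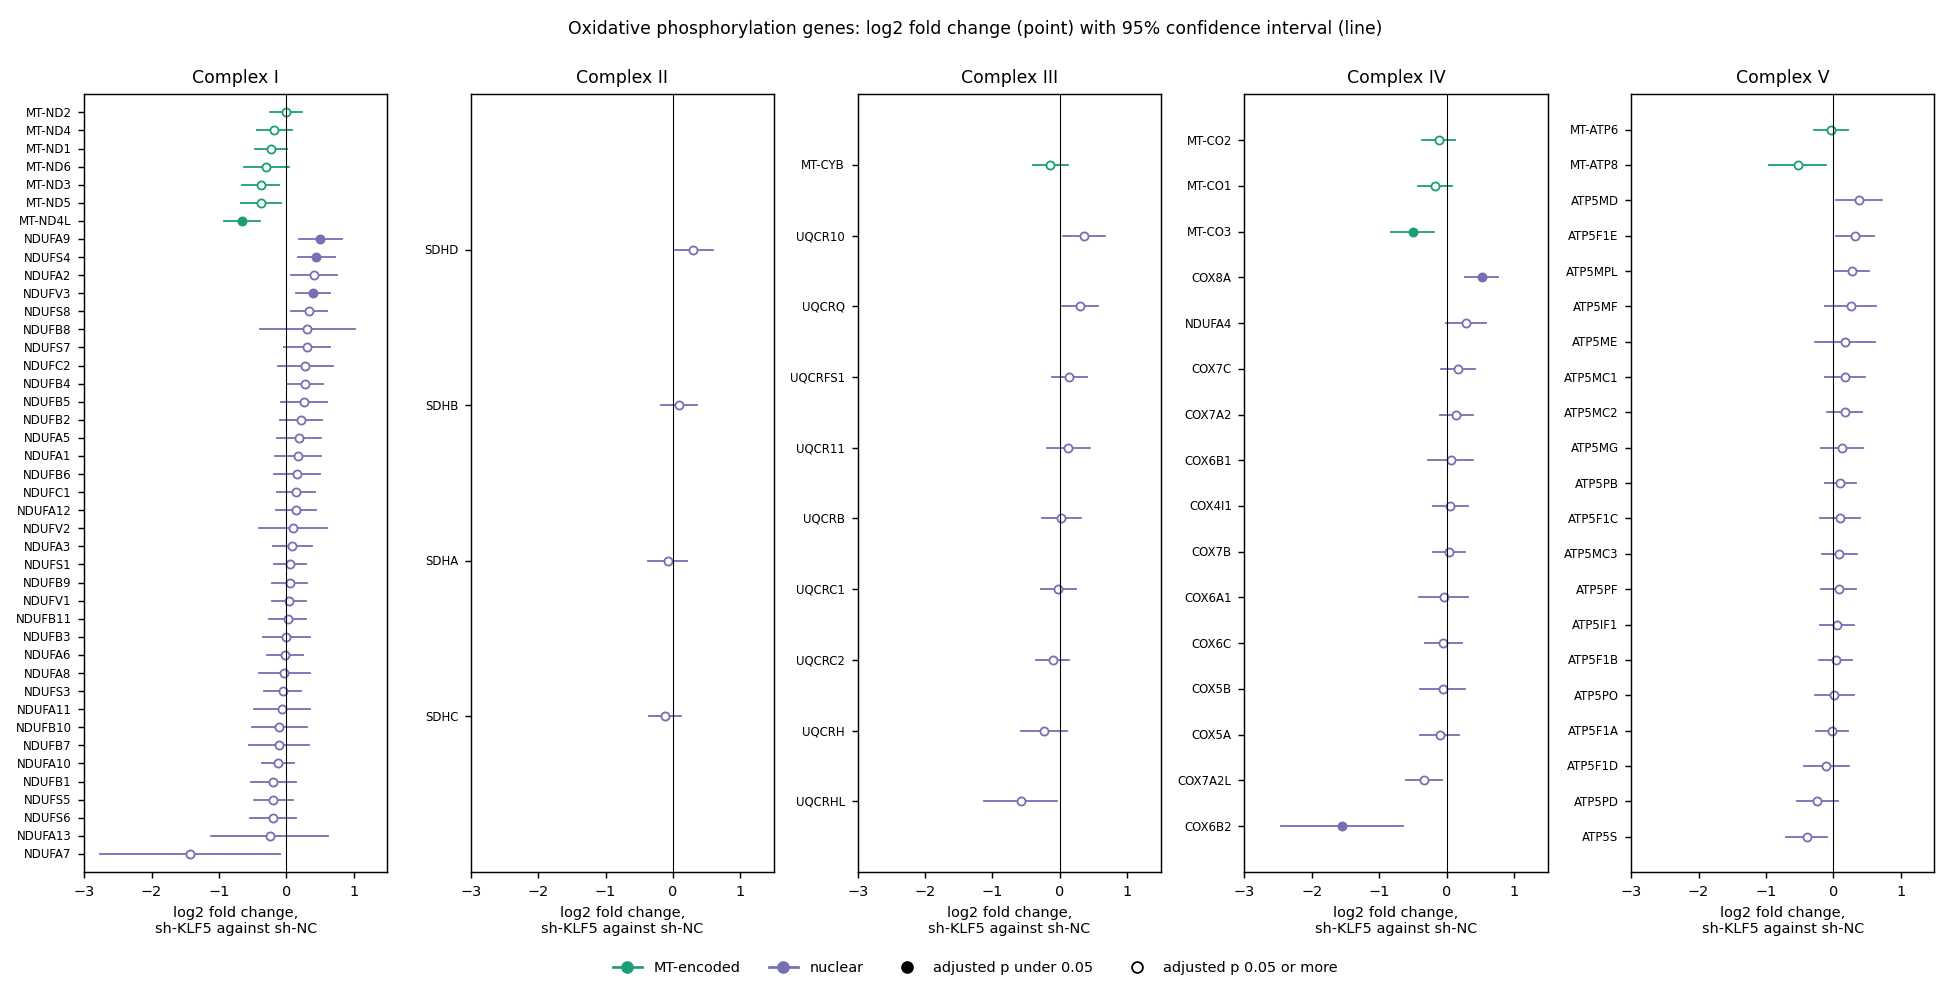
Log2 fold change of sh-KLF5 against sh-NC (x axis) for genes tested, by complex, with the 95% confidence interval as a line, MT-encoded genes in green, nuclear genes in purple and the 7 genes past an adjusted p of 0.05 as filled points. Most intervals cross 0, and 12 of the 13 MT-encoded genes lie below 0.

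The 2 genomes differed in the direction of their medians. The nuclear genes had a median log2 fold change of 0.08, with 52 of 81 above 0 and 5 called (6.17%). The MT-encoded genes had a median of -0.23, with 12 of 13 below 0 and 2 called (15.4%, beside 12.9% of all genes tested). No test was run on these medians. All MT-encoded genes lie on a single circular molecule and share precursors, so that they are not independent of one another. Without sh-KLF5 1 the nuclear and MT-encoded medians were 0.09 and -0.20. Without sh-KLF5 2 they were 0.06 and -0.15, with 11 of 13 MT-encoded genes below 0, and without sh-NC 2 they were 0.03 and -0.20.

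As a share of the library, the 13 MT-encoded mRNAs took 3.56%, 4.06% and 3.85% of all reads in sh-NC and 3.19%, 3.26% and 3.57% in sh-KLF5. Only sh-KLF5 3 reached the lowest control library. The 87 nuclear genes together took 0.561%, 0.539% and 0.603% of reads in sh-NC and 0.585%, 0.596% and 0.593% in sh-KLF5, and here the sh-KLF5 libraries lay inside the range of the controls. In mean normalized counts, the MT-encoded sum in sh-KLF5 was 87.0% of that in sh-NC, and the nuclear sum was 103.6%. For each read on a nuclear member there were 6.35, 7.54 and 6.38 reads on the MT-encoded mRNAs in sh-NC and 5.46, 5.46 and 6.01 in sh-KLF5, without overlap. By complex, the MT-encoded sum in sh-KLF5 was 84.8% of the control mean for complex I, 91.1% for complex III, 86.6% for complex IV and 97.7% for complex V. The nuclear sums ran from 98.2% (complex II) to 106% (complex I), and each of these sums overlapped between the groups. The 2 mitochondrial rRNAs, which are not translated, had a summed normalized count in sh-KLF5 that was 109.9% of that in sh-NC, with overlap. MT-RNR2 had a log2 fold change of 0.11 (limma adjusted p = 0.596) and MT-RNR1 one of 0.28 (adjusted p = 0.309). An oligo(dT)-enriched library holds rRNA and tRNA only as a remainder. The 22 tRNA genes of the mitochondrial DNA summed to 4637, 5237 and 4948 normalized counts in sh-NC and to 2458, 4235 and 4899 in sh-KLF5, with sh-KLF5 1 lowest.

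MT-ND4L had the smallest adjusted p of all the members. It encodes a small hydrophobic core subunit of the membrane arm of complex I. The controls had normalized counts of 12402, 14782 and 15476, and the sh-KLF5 libraries had 8317, 8588 and 10249. All sh-KLF5 libraries were below all controls, and their mean (9051 ± 1046, SD, n = 3) was 63.7% of the control mean (14220 ± 1612, SD, n = 3). The log2 fold change was -0.65 (SE 0.13, 95% interval -0.92 to -0.38, limma adjusted p = 0.00212), and the gene passed with any one library left out. MT-ND4, which is carried on the same RNA, did not pass (log2 fold change -0.18, limma adjusted p = 0.388). Whether the RNA that they share fell was not tested.

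MT-CO3 encodes a subunit of the catalytic core of cytochrome c oxidase, complex IV. The controls had normalized counts of 48275, 58280 and 60624, and the sh-KLF5 libraries had 30393, 42844 and 46030. The groups did not overlap, but sh-KLF5 1 lay far below the other sh-KLF5 libraries. The log2 fold change was -0.50 (SE 0.15, 95% interval -0.82 to -0.18, limma adjusted p = 0.0379), and it was -0.32 with an adjusted p of 0.0633 without sh-KLF5 1. Leaving out sh-NC 2, sh-NC 3 or sh-KLF5 2 also ended the call (adjusted p 0.0603 to 0.174).

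The other MT-encoded genes of complex I did not pass the test. MT-ND3 had 3829, 4113 and 4471 normalized counts in the controls against 2719, 3166 and 3745 after silencing, without overlap (log2 fold change -0.38, 95% interval -0.65 to -0.10, limma adjusted p = 0.0689). MT-ND1 had 36072, 37012 and 38489 in sh-NC and 30006, 30974 and 34097 in sh-KLF5, also without overlap (-0.23, interval -0.47 to 0.005). In the remaining genes of the complex the groups overlapped. MT-ND5 had a log2 fold change of -0.38 (adjusted p = 0.0945), MT-ND4 one of -0.18 and MT-ND6 one of -0.29. MT-ND6 is the 1 member read from the other strand of the mitochondrial DNA. MT-ND2 had nearly equal means, with 30733, 28624 and 27347 normalized counts in the controls, 29342, 27129 and 30290 after silencing, and an interval of -0.24 to 0.24.

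Outside complex I, MT-CYB, the cytochrome b of complex III, had a log2 fold change of -0.14 (95% interval -0.40 to 0.12). MT-CO1 and MT-CO2, which hold the copper and haem centres of complex IV, had values of -0.17 (interval -0.43 to 0.09) and -0.12 (interval -0.36 to 0.13). Of the membrane subunits of the ATP synthase, MT-ATP6 had a value of -0.03 (interval -0.29 to 0.22) and MT-ATP8 one of -0.53 (interval -0.96 to -0.11, limma adjusted p = 0.0985). MT-ATP8 had the fewest reads of the 13 genes, with 142, 217 and 173 normalized counts in the controls against 106, 113 and 147 after silencing, and the groups overlapped.

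**Figure D2:**
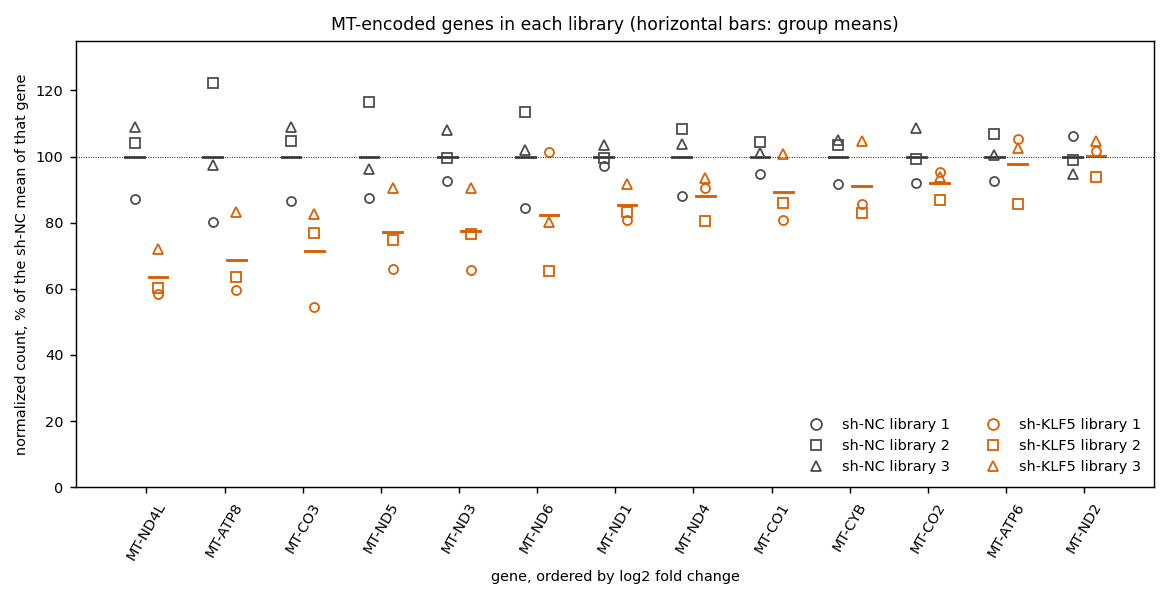
Normalized count of each MT-encoded gene in each of the 6 libraries, as a percent of the sh-NC mean of that gene, ordered by log2 fold change, with group means as bars. MT-ND4L, at the left, has a sh-KLF5 mean of 63.7% and MT-ND2, at the right, one of 100.1%, and the lowest of the 6 libraries is sh-KLF5 1 (7 genes) or sh-KLF5 2 (6 genes).

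No MT-encoded gene had its lowest value in a control library: it was sh-KLF5 1 for 7 genes and sh-KLF5 2 for 6. Over all genes tested, these libraries were lowest in 25.6% and 17.0% of genes. The highest value was in a control library for all 13 genes. Across the 13 genes, longer genes tended to have log2 fold changes nearer to 0 (Spearman's rho 0.41, Pearson's r 0.42). This is a description across genes of 1 molecule in the same libraries, with no p.

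MT-ND4L and MT-ATP8 are each carried on an RNA that also encodes an overlapping neighbour. The stretches where they overlap are shown because reads that lie there touch both genes. Coordinates and letters are of the GRCh38 reference as given with GENCODE 29, + strand, with the shared bases in capitals.
MT-ATP8 and MT-ATP6, chrMT:8507-8592: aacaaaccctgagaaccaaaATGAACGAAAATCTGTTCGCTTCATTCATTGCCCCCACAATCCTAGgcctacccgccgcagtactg
MT-ND4L and MT-ND4, chrMT:10740-10786: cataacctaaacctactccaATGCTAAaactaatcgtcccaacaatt
MT-ATP8 shares 46 bases with MT-ATP6 (22.2% of MT-ATP8), and MT-ND4L shares 7 bases with MT-ND4 (2.36% of MT-ND4L). MT-ATP6 in turn shares 1 base with MT-CO3, on the same strand. How reads over such bases were assigned is not given in the sources used here.

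Within each neighbouring pair, the 2 genes did not move alike. These ratios were chosen after the values were seen and were not tested. For every 100 reads on MT-ND4 there were 16.7, 16.2 and 17.6 reads on MT-ND4L in sh-NC and 10.9, 12.6 and 12.9 in sh-KLF5. The ratio was lower in every sh-KLF5 library than in every control. For every 100 reads on MT-ATP6 there were 108, 113 and 125 reads on MT-CO3 in sh-NC and 59.9, 104 and 93.2 in sh-KLF5, again without overlap and with sh-KLF5 1 far below. The corresponding reads on MT-ATP8 were 0.320, 0.421 and 0.357 in sh-NC and 0.209, 0.273 and 0.298 in sh-KLF5. Nuclear copies of mitochondrial genes listed in the table (67 genes) took reads equal to 1.33% to 1.64% of those on the MT-encoded mRNAs, depending on the library.

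**Figure D3:**
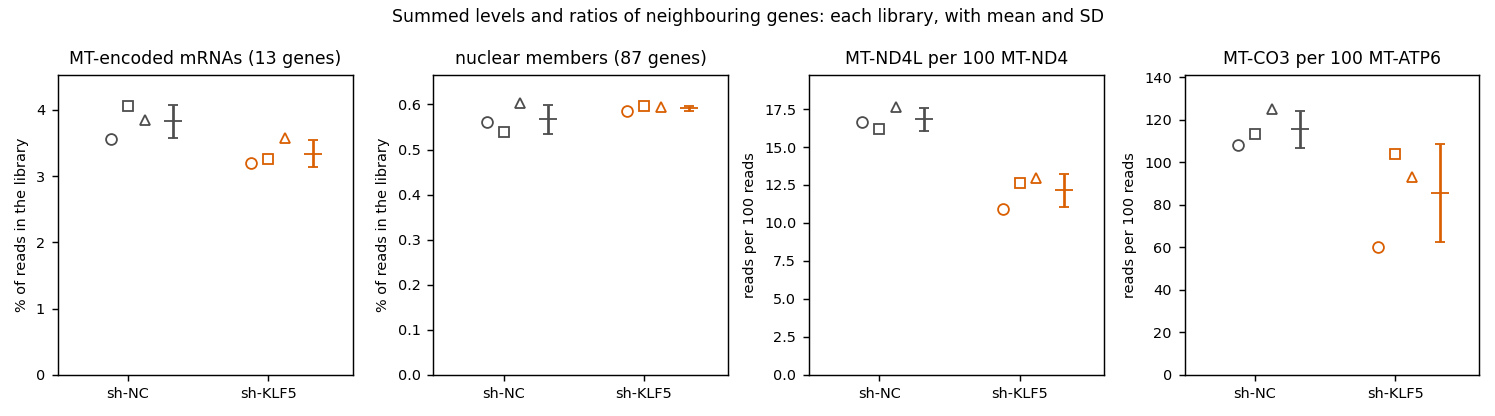
From left to right: summed reads of the MT-encoded mRNAs and of the nuclear members as a percent of all reads, then reads on MT-ND4L per 100 on MT-ND4 and on MT-CO3 per 100 on MT-ATP6 (y axes), by group. Each symbol is 1 of 3 libraries, with mean and SD beside them, and both ratios at the right are lower in every sh-KLF5 library than in every sh-NC library.

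Per kilobase of listed length, each MT-encoded gene except MT-ATP8 stood above every nuclear member in sh-NC. The highest level was that of MT-CO1, with a mean of 134294 normalized counts per kb in sh-NC and 119802 in sh-KLF5. In complex I the order in sh-NC ran from MT-ND4 (61330 per kb) to MT-ND3 (11958 per kb), and MT-ND4L held the second place in sh-NC and the third in sh-KLF5, below MT-ND1. MT-ATP6 had 70679 per kb in sh-NC against 857 for MT-ATP8. Both are carried on the same RNA, and MT-ATP8 has a listed length of only 207 bases. How reads over their shared bases were assigned is not given, so that this gap is not read as one in RNA level. Among nuclear genes, the β subunit of the catalytic head, ATP5F1B, led with 7232 per kb in sh-NC and 7408 in sh-KLF5. NDUFS5 was highest in complex I with 2878 per kb and NDUFA7 lowest with 11.0 per kb in sh-NC. For NDUFA9 the listed length (10391 bases) is that of all its exonic bases, which can exceed the length of its mRNA. The order of nuclear genes per kb is therefore not that of their mRNA levels. Overlaps with other genes were looked for only in called members. In complex II the levels in sh-NC went from SDHA (523 per kb) to SDHC (123 per kb), and in complex III from UQCRC1 (1072 per kb) to UQCRHL (46.2 per kb). In complex IV, COX5A was highest in sh-NC (1371 per kb) and COX8A was second (1329 per kb), while in sh-KLF5 COX8A came first with 1905 per kb. COX8C was lowest in complex IV (0.664 per kb in sh-NC), and ATP5MF-PTCD1, a read-through gene, was lowest in complex V (0.353 per kb).

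The 36 nuclear genes of complex I had a median log2 fold change of 0.10, with 3 up-regulated (8.33%, beside 6.04% of all genes tested) and none down-regulated. The 3 genes encode accessory subunits, as do 29 of the 36. NDUFA9, which sits where the arms of the complex meet, had normalized counts of 213, 196 and 215 in the controls and of 322, 260 and 309 after silencing. Its groups did not overlap, and the sh-KLF5 mean was 142.6% of the control mean (log2 fold change 0.51, SE 0.15, 95% interval 0.19 to 0.82, limma adjusted p = 0.0355). Of its exonic bases, 10.6% and 5.83% also belong to the genes AC005833.1 and AC005832.4 on the same strand, which were not analysed here. Its call was lost without any one of the controls or without sh-KLF5 3 (adjusted p 0.0815 to 0.159).

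NDUFS4, an accessory subunit of the NADH-oxidising module whose loss is known from Leigh syndrome, had 376, 321 and 376 normalized counts in the controls against 511, 472 and 480 after silencing. Every sh-KLF5 library was above every control (log2 fold change 0.45, SE 0.13, 95% interval 0.17 to 0.73, limma adjusted p = 0.0320). NDUFV3, a small accessory subunit of the same module, had 698, 672 and 749 normalized counts in the controls against 889, 875 and 1025 after silencing. Here too the groups were apart (log2 fold change 0.39, SE 0.12, 95% interval 0.14 to 0.65, limma adjusted p = 0.0393). Both calls were lost when any library other than sh-KLF5 1 was left out (adjusted p 0.0571 to 0.190).

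The 29 accessory subunits of complex I had a median log2 fold change of 0.09, and 3 were called higher (10.3%, beside 6.04% of all genes tested). The 7 nuclear core subunits had a similar median of 0.10, with 0 called. Among nuclear subunits that bind iron-sulphur clusters, NDUFS8 had a value of 0.34 (95% interval 0.07 to 0.61, limma adjusted p = 0.0996) and NDUFS1 one of 0.06 (interval -0.18 to 0.30). The lowest value in complex I was that of NDUFA7, at -1.43, but it rests on 19, 11 and 17 normalized counts in the controls against 11, 8 and 1 after silencing (95% interval -2.76 to -0.09, limma adjusted p = 0.160).

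None of the 4 genes of complex II and none of the 9 nuclear genes of complex III passed the test. At an unadjusted p of 0.05, 1 and 3 of them would pass, as would 26.2% of all genes tested. SDHA, the flavoprotein that oxidises succinate, had a log2 fold change of -0.08 (95% interval -0.36 to 0.20) and SDHC, a membrane anchor, one of -0.12 (interval -0.35 to 0.11). SDHB had a value of 0.08 (interval -0.18 to 0.35) and SDHD one of 0.30 (interval 0.01 to 0.59, limma adjusted p = 0.172). The medians were 0.0008 for complex II and 0.02 for complex III. UQCRC1 and UQCRC2, the core proteins of complex III, and UQCRFS1, its iron-sulphur protein, had values of -0.02, -0.10 and 0.14. The highest values in complex III were those of UQCR10 (0.36, interval 0.05 to 0.67) and UQCRQ (0.30, interval 0.03 to 0.57). UQCRHL is a near copy of UQCRH, so that the split of reads between them is uncertain. UQCRHL had a log2 fold change of -0.58 (interval -1.13 to -0.04, limma adjusted p = 0.159) and UQCRH one of -0.24.

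Complex IV held a rise and a fall among 13 nuclear genes tested (15.4% called, beside 12.9% of all genes tested), with a median log2 fold change of 0.04. COX8A, the smallest nuclear subunit, was the clearest change among nuclear members. The controls had normalized counts of 715, 637 and 670, and the sh-KLF5 libraries had 992, 1001 and 904. The groups were well apart, with means of 674 ± 39.4 and 966 ± 53.4 (SD, n = 3 each) and a log2 fold change of 0.52 (SE 0.12, 95% interval 0.27 to 0.77, limma adjusted p = 0.00636). Of its exonic bases, 34.5% also belong to AP000721.1 on the same strand, which was not analysed here. COX8C, its testis paralog, had at most 1 read in any library.

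COX6B2, the testis form of the COX6B subunit that lies at the contact between the monomers of the oxidase, had 15.8, 33.5 and 26.5 normalized counts in the controls against 9.17, 6.79 and 7.02 after silencing. The groups did not overlap, and the sh-KLF5 mean was 30.3% of the control mean (log2 fold change -1.55, SE 0.43, 95% interval -2.46 to -0.64, limma adjusted p = 0.0245). This gene had under 10 reads in every sh-KLF5 library and entered the test through the control group, as it would not with a minimum of 10 reads in every library. Its call was also lost without sh-NC 2, sh-NC 3 or sh-KLF5 2 (adjusted p 0.0657 to 0.172). Of its exonic bases, 30.9% also belong to AC020922.1 on the same strand, which was not analysed here. The ubiquitous form COX6B1 had 1119, 1119 and 1330 normalized counts in the controls against 921, 1429 and 1435 after silencing (log2 fold change 0.06, interval -0.27 to 0.39), and per kb of listed length its sh-NC level was 1271 normalized counts, against 6.63 for COX6B2.

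**Figure D4:**
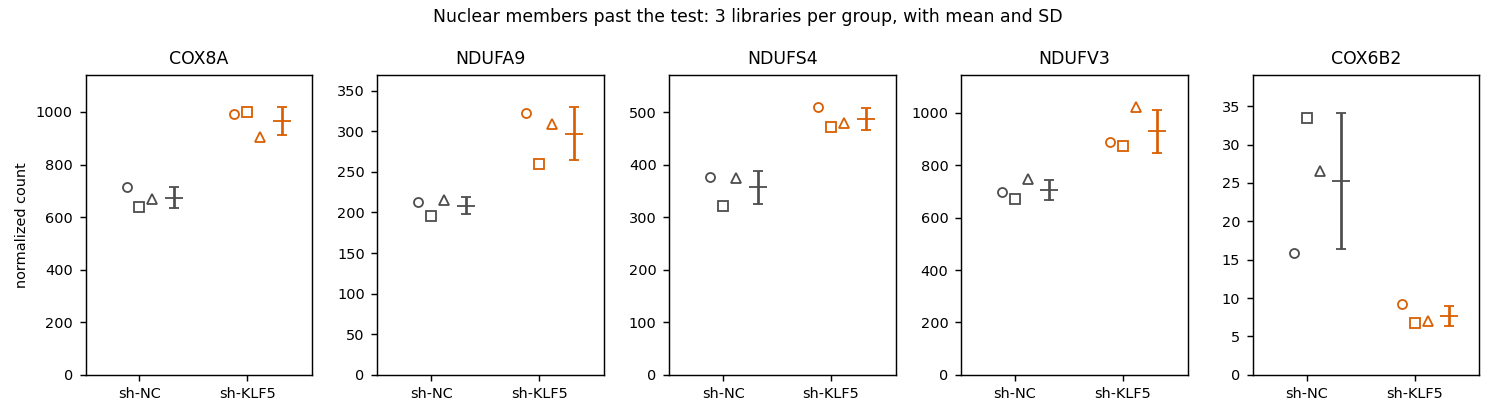
Normalized counts (y axis, from 0) of the 5 nuclear genes that passed an adjusted p of 0.05, by group, with 3 libraries as symbols and the mean and SD beside them. For COX8A, NDUFA9, NDUFS4 and NDUFV3 every sh-KLF5 library is above every sh-NC library, and for COX6B2 every sh-KLF5 library, at 6.79 to 9.17, is below.

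The other paralogs of complex IV did not pass the test or had too few reads for it. COX4I1, which serves the main form of subunit 4, had a log2 fold change of 0.06 (95% interval -0.20 to 0.32), and COX4I2 was not analysed here. COX6A1, the non-muscle form, had one of -0.04 (interval -0.40 to 0.32), while COX6A2, the heart and muscle form, had 0 to 2 normalized counts in each library. COX7A2, of liver type, had a value of 0.14 (interval -0.10 to 0.39), and COX7A2L, which takes part in joining complexes III and IV, had one of -0.33 (interval -0.60 to -0.07, limma adjusted p = 0.101). Groups did not overlap for either gene. COX7A1, the muscle form, had 4.66, 4.93 and 5.31 normalized counts in the controls against 5.10, 8.73 and 20.1 after silencing and was too low for the test. NDUFA4 had a value of 0.29 (interval -0.01 to 0.58, limma adjusted p = 0.206). Its paralog NDUFA4L2, a hypoxia-inducible gene, had 1.97 to 7.43 normalized counts in the controls against 3.88 to 10.2 after silencing.

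Complex V had no called gene among 19 nuclear members tested, although 15 of them had a log2 fold change above 0 (median 0.10). At an unadjusted p of 0.05, 4 of them would pass, beside 26.2% of all genes tested. The largest log2 fold change in either direction was that of ATP5S, at -0.40 (interval -0.70 to -0.09, limma adjusted p = 0.0895). Its sh-KLF5 libraries all lay below the controls. Of the 19 genes, 3 had groups apart with sh-KLF5 higher, beside 15.4% of all genes tested. The 5 subunits of the catalytic head, ATP5F1A to ATP5F1E, ranged from -0.11 to 0.32, and ATP5F1B, the most abundant nuclear member, had a value of 0.04 with an interval of -0.21 to 0.28. The 4 genes of the peripheral stalk ranged from -0.24 (ATP5PD) to 0.11 (ATP5PB). ATP5MC1, ATP5MC2 and ATP5MC3 encode the same mature c subunit of the rotor from different precursors and had values of 0.17, 0.17 and 0.09. The small membrane subunits ATP5MD, ATP5ME, ATP5MF, ATP5MG and ATP5MPL were all above 0, from 0.13 to 0.38, and 2 of the 5 had groups that did not overlap, beside 31.3% of all genes tested. These values were relative to a background in which the median of all genes was -0.002, and no test was run over these lists, which were set by role after earlier values were seen.

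The control library sh-NC 2 had the lowest value of the 6 libraries for 42.0% of the nuclear genes tested, beside 15.6% of all genes tested. Library sh-KLF5 1 was highest for 30.9% and lowest for 24.7% of the nuclear genes, close to its 26.9% and 25.6% over all genes. Without sh-NC 2, the nuclear median was 0.03 instead of 0.08, 45 of 81 genes were above 0, and MT-ND4L alone of the members passed the test, beside 7.49% of all genes. COX8A then had a log2 fold change of 0.48 (limma adjusted p = 0.0585). The coefficient of variation between libraries had a median of 9.18% in sh-NC and 11.0% in sh-KLF5 over the nuclear genes tested, beside 10.05% and 15.4% over all genes tested.

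Promoters are shown for 4 of the 5 nuclear genes that passed the test, because these are the windows in which letters known to be read by regulators of respiratory genes, or by KLF-type factors, were looked for. They are the RefSeq sequences of GRCh38.p14 from 250 bases before to 50 bases after the listed start, on the strand of the gene, and capitals mark a motif match on either strand. The motifs searched were NRF1 (GCGC, any base, then TGCGC), ETS (CCGGAAGT), YY1 (AANATGGCG), the GC box (GGGCGGG) and the CACCC box (CCACCC), of which none was allowed a mismatch.
NDUFA9, chr12:4648864-4649163, + strand: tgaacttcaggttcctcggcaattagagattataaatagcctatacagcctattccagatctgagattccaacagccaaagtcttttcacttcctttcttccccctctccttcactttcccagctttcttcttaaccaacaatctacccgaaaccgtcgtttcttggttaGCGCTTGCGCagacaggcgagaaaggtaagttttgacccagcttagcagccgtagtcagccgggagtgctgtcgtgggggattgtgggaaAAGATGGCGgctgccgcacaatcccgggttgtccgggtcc
NDUFS4, chr5:53560389-53560688, + strand: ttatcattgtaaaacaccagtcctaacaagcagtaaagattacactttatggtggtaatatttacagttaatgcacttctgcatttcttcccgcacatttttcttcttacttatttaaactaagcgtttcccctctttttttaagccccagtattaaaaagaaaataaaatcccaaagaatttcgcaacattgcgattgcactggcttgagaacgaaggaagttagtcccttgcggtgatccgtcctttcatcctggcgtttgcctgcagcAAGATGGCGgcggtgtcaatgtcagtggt
COX8A, chr11:63974370-63974669, + strand: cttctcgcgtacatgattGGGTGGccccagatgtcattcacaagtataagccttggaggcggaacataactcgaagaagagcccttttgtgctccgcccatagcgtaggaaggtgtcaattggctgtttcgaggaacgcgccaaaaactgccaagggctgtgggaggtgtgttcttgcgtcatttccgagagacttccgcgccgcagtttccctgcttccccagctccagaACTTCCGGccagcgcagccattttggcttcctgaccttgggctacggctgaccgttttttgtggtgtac
COX6B2, chr19:55354670-55354969, - strand: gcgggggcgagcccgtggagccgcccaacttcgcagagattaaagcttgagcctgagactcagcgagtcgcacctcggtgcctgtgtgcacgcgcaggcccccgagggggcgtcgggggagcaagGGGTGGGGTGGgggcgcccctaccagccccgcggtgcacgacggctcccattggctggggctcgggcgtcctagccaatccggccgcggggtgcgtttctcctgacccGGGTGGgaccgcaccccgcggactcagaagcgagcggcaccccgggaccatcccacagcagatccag
NDUFA9 held 1 NRF1 match and 1 YY1 match, and NDUFS4 held 1 YY1 match, at bases 272 to 280 of its window and so after the listed start. COX8A held 1 ETS match and 1 CACCC box, and COX6B2 held 3 CACCC boxes, 2 of which share a base. The window of NDUFV3 held none of the 5 motifs.

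Of the 87 nuclear genes, 68 had a promoter in the RefSeq table. The NRF1 letters were found in 25.0% of these 68 windows, beside 11.7% of those of 10382 protein-coding genes tested and 6.28% of 27305 promoters of all kinds. The YY1 letters were found in 23.5% (beside 6.89% and 3.37%), and the ETS letters in 14.7% (beside 8.76% and 4.44%). By contrast, the GC box was found in 27.9% of the windows against 54.4% of those of tested protein-coding genes, and the CACCC box in 23.5% against 37.5%. YY1 letters were present in 32.3% of 31 windows of complex I, 7.69% of 13 of complex IV and 7.14% of 14 of complex V. A match is a description of these letters and not a bound site.

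Genes that make, regulate or assist the respiratory complexes were read from further lists, chosen by function with earlier results of these data known. Among 33 genes of mitochondrial transcription, RNA processing and DNA copying, FASTK, a protein that stabilises mitochondrial RNA, was up-regulated and none was down-regulated (3.03% called, beside 12.9% of all genes tested, with a median log2 fold change of -0.01). FASTK had 1246, 1233 and 1246 reads in sh-NC and 1654, 1726 and 1466 in sh-KLF5, without overlap (log2 fold change 0.38, limma adjusted p = 0.0366). TFAM, which packages mitochondrial DNA and starts its transcription, had 2281, 2128 and 1810 reads in sh-NC and 1916, 1589 and 1571 in sh-KLF5, and the groups overlapped in normalized counts (-0.28, 95% interval -0.54 to -0.03, adjusted p = 0.148). Of the 78 mitochondrial ribosomal protein genes, MRPL19 (-0.41, limma adjusted p = 0.0313) and MRPL30 (-0.39, adjusted p = 0.0475), both of the large subunit, were down-regulated and none was up-regulated (2.56% called).

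Assembly factors of complexes I (19 genes), II (4), III (6), IV (25 tested) and V (5) gave no call in either direction with limma. Their median log2 fold changes were 0.11, 0.45, 0.03, -0.02 and 0.03. At an unadjusted p of 0.05, 4, 2, 0, 2 and 0 of them would pass, beside 26.2% of all genes tested. The 7 further subunits and carriers outside the name patterns gave no call either (median -0.03). Of these, 2 would pass at an unadjusted p of 0.05, beside the same 26.2% of all genes.

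Among 16 transcription factors and coactivators known to act on nuclear respiratory genes, PPARG and NRIP1 were up-regulated and ESRRG was down-regulated (18.8% called, beside 12.9% of all genes tested). PPARG, a lipid-activated nuclear receptor, had 229, 242 and 222 reads in sh-NC and 430, 363 and 386 in sh-KLF5 (log2 fold change 0.77, limma adjusted p = 0.00152). NRIP1, a corepressor of nuclear receptors, had 983, 889 and 752 reads in sh-NC and 1506, 1204 and 1004 in sh-KLF5 (0.50, adjusted p = 0.0312). ESRRG, an orphan receptor that acts with PGC-1 coactivators on oxidative genes, had 40, 30 and 27 reads in sh-NC and 2, 0 and 0 in sh-KLF5, a ratio of 48.1 in favour of sh-NC with a counting interval of 12.97 to 403. NRF1, the activator whose letters were counted above, had 578, 507 and 508 reads in sh-NC and 315, 423 and 439 in sh-KLF5. Its groups did not overlap, but it missed the threshold (-0.44, 95% interval -0.74 to -0.14, limma adjusted p = 0.0522). PPARGC1A, which encodes PGC-1α, had 56, 62 and 41 reads in sh-NC and 87, 63 and 84 in sh-KLF5 (0.56, interval 0.05 to 1.08, adjusted p = 0.151).

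In the tricarboxylic acid cycle, which supplies the NADH and succinate used by complexes I and II, 3 of 19 genes changed (15.8%, beside 12.9% of all genes tested). FH, the fumarase, had 1734, 1611 and 1635 reads in sh-NC and 2198, 2086 and 2252 in sh-KLF5 (log2 fold change 0.40, limma adjusted p = 0.0244). DLD, the dehydrogenase shared by the 2-oxoacid complexes, had a value of 0.37 (adjusted p = 0.0427). OGDHL, a homolog of the oxoglutarate dehydrogenase subunit, had 54, 37 and 37 reads in sh-NC and 21, 8 and 9 in sh-KLF5 (-1.77, adjusted p = 0.00643). The median over the cycle was 0.06. The call of PPARG held with any one library left out. So did those of ESRRG and OGDHL, but both genes had under 10 reads in some sh-KLF5 libraries, entered the test through the control group and are not tested with a minimum of 10 reads in every library. Those of FASTK, MRPL19, MRPL30, NRIP1, FH and DLD were lost without each of sh-NC 1, sh-NC 2 and sh-NC 3 (limma adjusted p 0.0511 to 0.192). With 1 of the 6 libraries left out, FASTK, NRIP1, FH and DLD lost their calls in 4 fits and MRPL19 and MRPL30 in 5. Leaving out a sh-KLF5 library therefore also ended each of these calls.

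Processed copies of nuclear members were also listed in the table. Named pseudogenes existed for 27 of the members (49 pseudogenes), and the reads on them came to a median of 0.678% of the reads on the gene itself. The share was highest for NDUFV2, at 14.6%. NDUFA9 was the one nuclear gene past the test with such a copy, whose reads were 0.394% of its own.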

How the data were processed

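RNA of SKOV3 cells (3 sh-KLF5 and 3 sh-NC libraries) was sequenced from poly(A)-enriched RNA. The values are a normalized signal that the authors made by scaling the reads on each of 29185 genes by 1 factor per library. Their group means, log2 fold changes and p-values, which the authors deposited beside it, were not used. HISAT2 2.0.5, featureCounts 1.5.0-p3, DESeq2 1.20.0 and hg38 are named in the submitters' processing notes. Strand settings are not given in the sources used here.

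Whole reads came back (100% within 0.001) when a library's values were divided by the least of them above 0. For genes passing edgeR's filterByExpr (minimum count 10), limma 3.58.1 (R 4.3.3, robust, with a mean-variance trend) was run on log2(signal + 1), with Benjamini-Hochberg adjustment over 15803 genes, so that folds of genes with few reads are understated. On simulated counts (15480 genes) limma recovered 83.8% of genes changed by 1 and 96.4% of those changed by 2 on the log2 scale, with 6 false calls. Changes under 1, the size found for most members, were not simulated, so that their recovery is not known. Annotation was GENCODE 29, whose coordinates matched 99.98% of the genes. Promoters came from RefSeq. Members and lists were chosen with earlier results of these data known. All MT-encoded genes, called members, fixed paralog sets, the highest and lowest member per complex, and called list genes were named, and other members named were chosen after their values were seen. Members not named singly are counted in the totals, and 1 of them is not reported here. Alternatives used edgeR 4.0.16, DESeq2 1.42.0, other scalings, pseudocounts and filters, a replicate block, and each library left out. Counting intervals are exact binomial at 95% and cover counting error only.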

Additional observations from a re-analysis of the deposited data

How the results depend on the processing

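With edgeR, with library totals, TMM or non-mitochondrial totals as scaling, and with pseudocounts of 0.1 and 5, the number of members called stayed at 7, and with DESeq2 it was 8. No scaling moved the median of all genes by 0.1. Without a filter, 1 nuclear gene was called higher and 4 MT-encoded genes lower, beside 8.81% of all genes called in either direction. With at least 10 reads in every library, 0 nuclear genes were called lower and 0 passed the fold threshold, since COX6B2 was no longer tested. At an unadjusted p of 0.05, 13 nuclear genes were higher, 5 nuclear and 5 MT-encoded genes were lower, and 2 passed the fold threshold. Of all genes tested, 26.2% passed at that p. With the replicate block, 4 MT-encoded genes were lower and 10 members were called, beside 16.9% of all genes. The same-numbered libraries deviated together with low correlations of 0.06, 0.03 and 0.05, each library best with its own number. The labels do not say that the numbers mark pairs, and the main test did not take them as such. Whether they do was not tested. With the block, MT-ND3 and MT-ND5 also passed (limma adjusted p 0.0195 and 0.0209). NDUFA9, NDUFS4 and NDUFV3 missed the threshold without a filter (limma adjusted p 0.0501, 0.0502 and 0.0595), and MRPL30 did with TMM scaling (0.0527) and with either other filter. The log2 fold change of MT-ND2 changed sign with edgeR (-0.0011) and DESeq2 (-0.0037).

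Leaving out each library in turn gave 0 to 7 nuclear genes higher, 0 to 4 nuclear genes lower, 1 to 5 MT-encoded genes lower and 0 to 2 members past the fold threshold. All 6 libraries changed calls. Without sh-NC 1, 2 and 3 in turn, 4, 1 and 3 members were called, beside 8.33%, 7.49% and 8.45% of all genes. Without sh-KLF5 1, 2 and 3 in turn, 13, 3 and 8 were called, beside 17.0%, 9.97% and 12.9% of all genes. MT-ND4L passed in each of these fits (limma adjusted p 0.000706 to 0.0263), COX8A in all but that without sh-NC 2, and NDUFS4 and NDUFV3 in that without sh-KLF5 1 alone. In these fits MT-ND2 ranged from -0.0380 to 0.0464, MT-ATP6 from -0.0913 to 0.0590, COX6A1 from -0.185 to 0.186 and COX6B1 from -0.0467 to 0.273, so their signs changed. KLF5 stayed between -1.62 and -1.48. The cause was not tested. With 3 libraries per group, the 95% interval had a median half-width of 0.34 on the log2 scale over all genes and 0.29 over the members, which limits the size of change that could be seen.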
